A study of Mus musculus with 6 samples.

Results

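The genes described here are 8 forkhead transcription factor genes (Foxf2, Foxq1, Foxl2, Foxc1, Foxc2, Foxo1, Foxo3 and Foxp1) and the zinc finger gene Zfp551, measured in brain endothelial cells of mouse embryos. They were taken by symbol from the deposited table, and all 9 were found among its 23827 rows. No Zic gene is among them, so the Zic genes are given only for comparison. The RNA came from 3 libraries of embryos carrying the R26 Axin1 IresLacZ overexpression allele (Axin1 libraries) and 3 libraries labelled Wt, which the labels call biological replicates. All embryos were of the C57BL/6 x 129/Sv background and were taken at E14.5 (embryonic day), and in both groups tamoxifen had been given to the mother at E12.5. The labels name no driver for the Axin1 allele or for the ribosome tag. RNA was isolated by TRAP (translating ribosome affinity purification), in which a tag on the ribosomes of one cell type lets its translated messenger RNA be captured from whole tissue, and polyadenylated RNA was sequenced. Values are RPKM, read numbers divided by transcript length and library depth, so that levels can be compared between genes.

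Forkhead factors bind DNA through a winged helix domain, and many act on enhancers that they share with ETS factors in endothelial cells. Canonical Wnt signalling, in which beta-catenin joins TCF/LEF factors in the nucleus, drives vessel growth and barrier formation in the embryonic brain. Axin1 is a scaffold protein on which beta-catenin is marked for breakdown, so that extra Axin1 dampens the pathway. Foxf2 and Foxq1 are known as transcription factors enriched in brain over other endothelium, and Foxf2 is also known from brain pericytes in mice. Foxc1 and Foxc2 act in the mesenchyme around vessels and in endothelium, and Foxo1 and Foxo3 are held out of the nucleus when the kinase Akt phosphorylates them.

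RefSeq (build GRCm38.p6) gave promoters for 7 of the 9 genes, and none for Foxq1 or Foxc2. These were 9 promoters in all, since Foxp1 has 3. They are shown because they are the stretches in which letters bound by TCF/LEF factors or by forkhead factors could be looked for. The search covered the 250 bases before the start of transcription on both strands. The TCF/LEF letters were CTTTGAT and CTTTGTT, and the forkhead letters were TGTTTAC and TGTTTAT, and no match of one kind overlapped a match of the other. Capitals mark a match. The promoter of Foxf2 (chr13:31625566-31625815, plus strand), that of Foxl2 (chr9:98955357-98955606, plus strand), that of Zfp551 (chr7:12422492-12422741, minus strand) and the Foxp1 promoter at chr6:99266516-99266765 (minus strand) read as follows, 5′ to 3′.
Foxf2: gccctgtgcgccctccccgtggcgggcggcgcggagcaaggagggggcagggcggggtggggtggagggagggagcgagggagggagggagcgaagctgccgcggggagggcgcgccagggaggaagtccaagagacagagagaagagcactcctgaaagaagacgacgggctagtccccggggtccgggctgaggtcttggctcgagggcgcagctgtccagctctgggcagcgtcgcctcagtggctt
Foxl2: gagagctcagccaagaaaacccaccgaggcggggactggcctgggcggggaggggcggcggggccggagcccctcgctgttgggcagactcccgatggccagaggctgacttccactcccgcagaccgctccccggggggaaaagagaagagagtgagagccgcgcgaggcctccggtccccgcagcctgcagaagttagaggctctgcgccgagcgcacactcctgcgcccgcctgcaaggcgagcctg
Zfp551: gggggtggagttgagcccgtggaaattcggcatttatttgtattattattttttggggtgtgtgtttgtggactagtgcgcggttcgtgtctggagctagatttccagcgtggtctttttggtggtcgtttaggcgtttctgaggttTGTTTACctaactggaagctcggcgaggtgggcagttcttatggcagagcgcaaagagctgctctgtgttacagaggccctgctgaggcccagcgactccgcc
Foxp1: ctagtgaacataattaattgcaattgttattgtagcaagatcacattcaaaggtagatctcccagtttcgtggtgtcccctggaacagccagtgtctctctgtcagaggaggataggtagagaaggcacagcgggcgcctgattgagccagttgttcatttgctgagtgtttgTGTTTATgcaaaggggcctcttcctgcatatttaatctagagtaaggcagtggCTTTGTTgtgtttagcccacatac
No TCF/LEF or forkhead letters stood in the promoters of Foxf2, Foxl2, Foxc1, Foxo1 and Foxo3. Zfp551 held TGTTTAC with its first base 103 bases before the start. The Foxp1 promoter shown held TGTTTAT and CTTTGTT, and another Foxp1 promoter held the reverse letters ATAAACA and AACAAAG. The remaining Foxp1 promoter held no match of either kind. Of 32841 RefSeq promoters of this length, 8.06% held the TCF/LEF letters and 7.10% the forkhead letters. A match is a description of the letters and not a binding site, and most enhancers lie outside this window.

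Sequencing depth, worked out from the deposited values, was 21077157 to 37039874 reads in the Axin1 libraries and 53524024 to 62507571 reads in the wild-type libraries. Axin1 itself was higher in the Axin1 libraries, with 37.4 to 38.1 RPKM against 13.6 to 15.1 RPKM in the wild-type libraries (log2 fold change 1.34, limma adjusted p = 2.25e-05). By limma on log2(RPKM + 1), 2846 of 12493 tested genes (22.8%) had an adjusted p under 0.05, of which 1046 were lower (8.37%) and 1800 higher (14.4%). The column names carry the tag RS216 in every Axin1 library and RS148 in every wild-type library. No label says what this tag stands for, and whatever it marks and the genotype cannot be told apart. The 10 endothelial markers were all detected, with a summed level of 3008 to 3226 RPKM in the Axin1 libraries and 3422 to 3590 RPKM in the wild-type libraries. Without Cldn5, a tight junction gene, the sums of the other 9 overlapped. They were 2271 to 2494 RPKM in the Axin1 libraries and 2240.1 to 2291 RPKM in the wild-type libraries. Opposite moves lie behind these sums. Emcn was higher, with means of 284 RPKM in the Axin1 libraries and 136 RPKM in the wild-type libraries (log2 fold change 1.05, limma adjusted p = 3.65e-05). Esam and Tie1 were lower by limma, at -0.24 and -0.31. The 12 meningeal fibroblast markers summed to 312 to 331 RPKM in the Axin1 libraries. In wild-type replicates 1 to 3 they summed to 764, 388 and 433 RPKM, so that wild-type replicate 1 stood apart. Much of the gap between the groups lay in 1 gene, Ptgds, with 56.5 to 82.7 RPKM in the Axin1 libraries. It had 415, 164 and 173 RPKM in wild-type replicates 1 to 3. By limma 4 of the 12 markers were lower, 1 was higher and 7 did not pass.

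All 9 genes passed the filter of a mean of 1 RPKM, and each value rested on at least 294 reads. Foxf2, Foxq1, Foxl2 and Zfp551 were lower with Axin1 overexpression and none of the 9 was higher. Foxc1, Foxc2, Foxo1, Foxo3 and Foxp1 did not pass the test. The 4 lower genes of 9 are to be read against the 8.37% of all tested genes that were lower. Foxf2, Foxq1 and Zfp551 were also lower by 0.5 or more on the log2 scale, as 2.47% of tested genes were. In the authors' deposited table the same 4 genes have an adjusted p under 0.05, and 4.97% of the genes it tests are called lower in the Axin1 libraries. The median log2 fold change was -0.27 over the 9 genes and 0.04 over all tested genes. The groups did not overlap for 6 genes that lay lower (15.9% of tested genes did so), and for Foxp1, which lay higher (28.0% of tested genes did so). Foxc2 is among the 6 only by a narrow margin, with 5.74 RPKM in its highest Axin1 library and 5.79 RPKM in its lowest wild-type library. In either direction, 43.9% of tested genes did not overlap. In bulk libraries such as these, fewer cells of a type and less RNA per cell cannot be told apart.

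**Figure D1:**
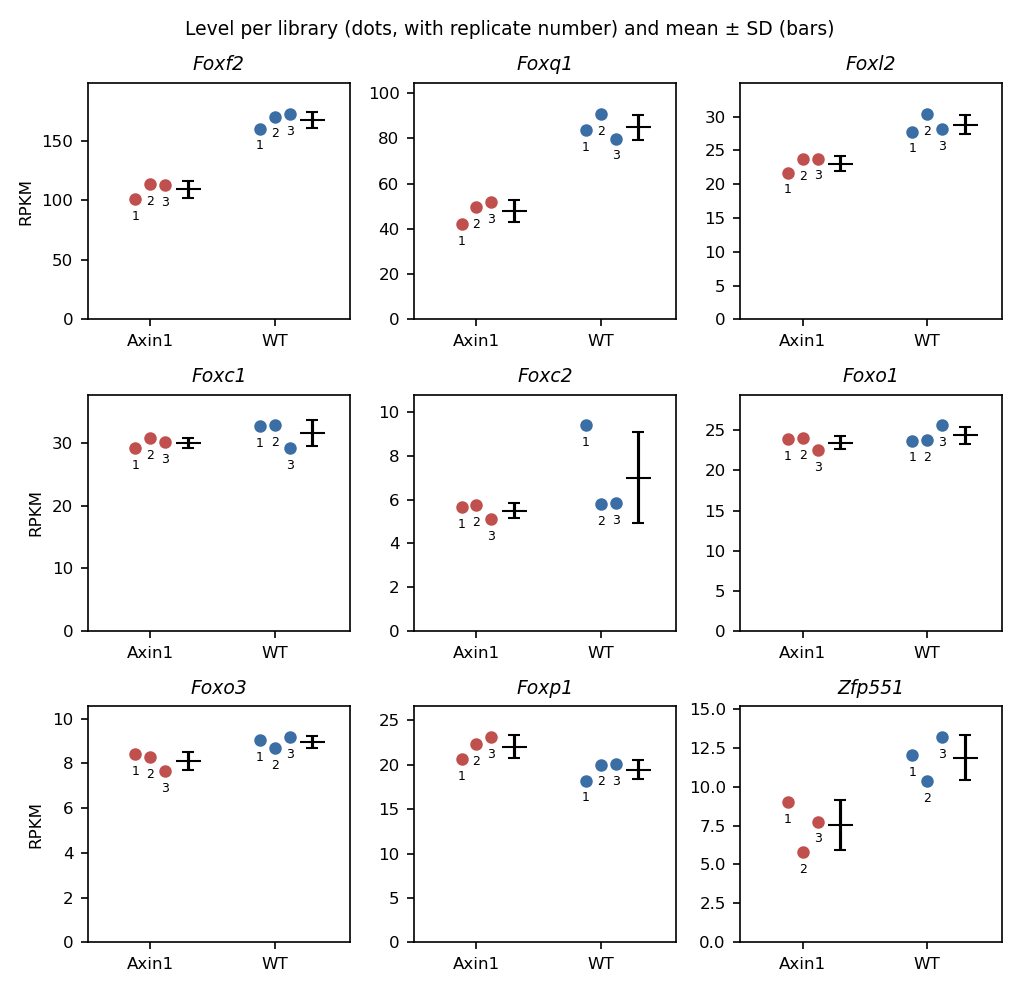
RPKM of the 9 genes in each library, with the Axin1 libraries in red on the left and the wild-type libraries in blue on the right; numbers are replicates and bars are mean ± SD (n = 3). Foxf2, Foxq1, Foxl2 and Zfp551 lay lower in every Axin1 library than in any wild-type library, while Foxc1 and Foxo1 overlapped and Foxc2 had a single high wild-type library at 9.40 RPKM.

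Foxf2 was the most abundant forkhead gene in both groups. It had 101, 114 and 113 RPKM in Axin1 replicates 1 to 3, against 160.4, 171 and 173 RPKM in wild-type replicates 1 to 3. Every Axin1 library lay below every wild-type library, with a gap wider than the spread within either group. The mean was 109 ± 6.97 RPKM in the Axin1 libraries and 168 ± 6.62 RPKM in the wild-type libraries (SD, n = 3 each), which is 35.0% lower. On the log2 scale the change was -0.62 (SE 0.07, 95% confidence interval -0.77 to -0.46, limma adjusted p = 0.00100). The authors' deposited table gives a fold of 1.59, wild type over Axin1, with an adjusted p of 3.86e-10. By mean level Foxf2 lay above 95.5% of tested genes in the Axin1 libraries and above 97.9% in the wild-type libraries. It made up 23.8% ± 0.73 of the summed RPKM of the 44 listed forkhead genes in the Axin1 libraries and 29.2% ± 1.30 in the wild-type libraries (SD, n = 3 each).

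Foxq1, the second most abundant forkhead gene in both groups, had the largest log2 change of the 9. It had 42.3, 49.5 and 51.8 RPKM in Axin1 replicates 1 to 3, against 83.7, 90.9 and 79.9 RPKM in wild-type replicates 1 to 3. The groups did not overlap, and the gap between them was wider than the range within either. The mean was 47.8 ± 4.97 RPKM in the Axin1 libraries and 84.8 ± 5.56 RPKM in the wild-type libraries (SD, n = 3 each), 43.6% lower, and the log2 fold change was -0.82 (SE 0.09, 95% confidence interval -1.02 to -0.62, limma adjusted p = 0.000845). The authors' deposited table gives a fold of 1.83, wild type over Axin1, with an adjusted p of 1.98e-17. Its share of the summed forkhead RPKM was 10.4% ± 0.81 in the Axin1 libraries and 14.8% ± 0.57 in the wild-type libraries (SD, n = 3 each).

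Foxq1 and Foxf2 are neighbours: in the RefSeq order of protein-coding genes on chromosome 13, Foxq1, Foxf2, Foxc1 and Gmds follow each other. Along this row the log2 fold changes were -0.82, -0.62, -0.07 and 0.14, so that the first 2 genes passed the test and the others did not. Gmds, which encodes an enzyme of GDP-fucose synthesis, had 22.0 ± 0.98 RPKM in the Axin1 libraries and 19.9 ± 1.84 RPKM in the wild-type libraries (SD, n = 3 each; limma adjusted p = 0.226). The ratio of Foxc1 to Foxf2 RPKM was 0.289, 0.271 and 0.267 in Axin1 replicates 1 to 3, against 0.204, 0.192 and 0.169 in wild-type replicates 1 to 3. That of Foxq1 to Foxf2 was 0.418, 0.436 and 0.459 in the Axin1 libraries, against 0.522, 0.533 and 0.462 in the wild-type libraries. Neither ratio overlapped between the groups, the Foxq1 ratio by a narrow margin. Each reached an exact two-sided permutation p of 0.10, the smallest that 3 against 3 libraries allow, and 0.125 after Benjamini-Hochberg adjustment over the 5 ratios compared.

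Foxl2, a factor known for its roles in the ovary and the eyelid, moved less. It had 21.7, 23.7 and 23.8 RPKM in Axin1 replicates 1 to 3, against 27.8, 30.4 and 28.2 RPKM in wild-type replicates 1 to 3, again without overlap. The mean was 23.1 ± 1.16 RPKM in the Axin1 libraries and 28.8 ± 1.42 RPKM in the wild-type libraries (SD, n = 3 each), 19.9% lower, and the log2 fold change was -0.31 (SE 0.07, 95% confidence interval -0.46 to -0.16, limma adjusted p = 0.0151). Once each library was corrected for the GC content and length of transcripts it was -0.18, and the call was lost (limma adjusted p = 0.0901). Its share of the summed forkhead RPKM was 5.04% ± 0.13 in the Axin1 libraries and 5.01% ± 0.12 in the wild-type libraries (SD, n = 3 each), while that sum was itself 458 ± 19.7 RPKM in the Axin1 libraries against 574 ± 15.7 RPKM in the wild-type libraries. The antisense transcript Foxl2os had 2.67, 2.94 and 3.12 RPKM in Axin1 replicates 1 to 3, against 2.66, 2.91 and 2.91 RPKM in wild-type replicates 1 to 3. Its log2 fold change of 0.03 did not pass (limma adjusted p = 0.760) and turned negative with either rescaling, with voom, and without Axin1 replicate 3 or wild-type replicate 1. The library kit does not mark strand, so reads from stretches that Foxl2 and Foxl2os share cannot be told apart.

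Zfp551 had 8.98, 5.82 and 7.75 RPKM in Axin1 replicates 1 to 3, against 12.01, 10.3 and 13.2 RPKM in wild-type replicates 1 to 3. The groups did not overlap, but relative to their mean the replicates of either group differed more than those of Foxf2 or Foxq1. The mean was 7.52 ± 1.597 RPKM in the Axin1 libraries and 11.8 ± 1.43 RPKM in the wild-type libraries (SD, n = 3 each), 36.6% lower, and the log2 fold change was -0.60 (SE 0.14, 95% confidence interval -0.92 to -0.29, limma adjusted p = 0.0183). The call was lost without wild-type replicate 3 (-0.53, limma adjusted p = 0.0517) and with no filter on low values (adjusted p = 0.0636), and with a pseudocount of 10 the log2 fold change was -0.32. The gene belongs to a large family of zinc finger genes with like sequences. No label says how the counting shared reads among them, so its level is uncertain to that extent. The next listed gene on chromosome 7, the zinc finger gene Zfp606, had 8.47 ± 0.18 RPKM in the Axin1 libraries and 8.18 ± 0.60 RPKM in the wild-type libraries (SD, n = 3 each; log2 fold change 0.05, limma adjusted p = 0.641).

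Foxc1, which in mice is needed in the meninges and in vessels of the brain, did not pass. It had 29.2, 30.8 and 30.1 RPKM in Axin1 replicates 1 to 3, against 32.7, 32.8 and 29.2 RPKM in wild-type replicates 1 to 3, and the groups overlapped. Its log2 fold change of -0.07 (limma adjusted p = 0.487) had a 95% confidence interval of -0.22 to 0.08, which leaves out a change as large as that of Foxf2 or Foxq1. Under the GC and length correction it was 0.09. Foxc2, known for its role in lymphatic valves, had 5.65, 5.74 and 5.11 RPKM in Axin1 replicates 1 to 3, against 9.40, 5.79 and 5.84 RPKM in wild-type replicates 1 to 3. The single high value was that of wild-type replicate 1, and the other wild-type libraries lay next to the Axin1 libraries. The log2 fold change was -0.27 (95% confidence interval -0.62 to 0.07, limma adjusted p = 0.219), and without wild-type replicate 1 it was -0.07 (limma adjusted p = 0.537). That same library held the highest level of meningeal fibroblast markers, given above. Among them Ptgds, a prostaglandin synthase made in the meninges, had 56.5, 69.8 and 82.7 RPKM in Axin1 replicates 1 to 3, against 415, 164 and 173 RPKM in wild-type replicates 1 to 3. The part of meningeal RNA in the Foxc2 values was not tested.

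**Figure D2:**
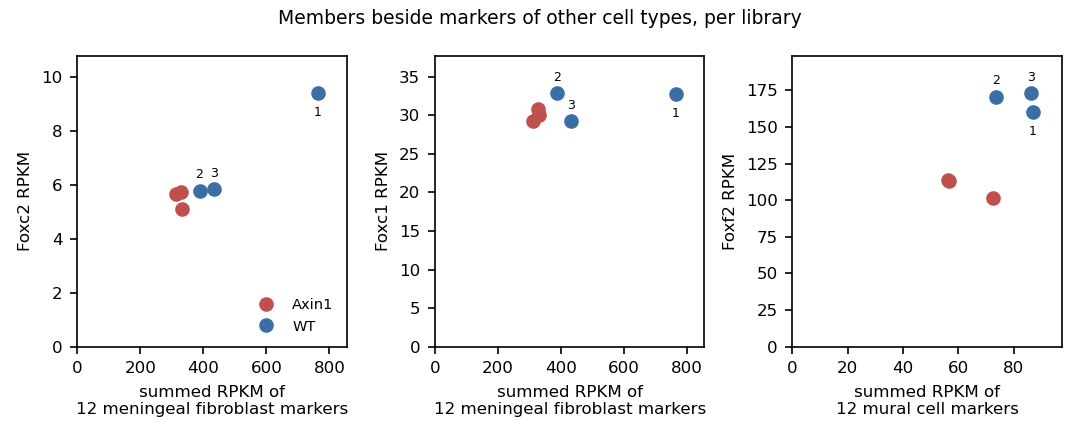
Foxc2, Foxc1 and Foxf2 RPKM (vertical axes) against the summed RPKM of marker genes of other cell types (horizontal axes) in each library, Axin1 in red and wild type in blue with replicate numbers. Wild-type replicate 1 stands apart in Foxc2 (9.40 RPKM) and in the 12 meningeal markers (764 RPKM), but not in Foxc1, and Foxf2 lies lower in every Axin1 library.

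Foxo1 and Foxo3, which slow growth and metabolism in resting endothelium when they are active, did not pass either. Foxo1 had 23.9, 24.0 and 22.5 RPKM in Axin1 replicates 1 to 3, against 23.7, 23.8 and 25.6 RPKM in wild-type replicates 1 to 3, with overlap. Its log2 fold change was -0.05 (95% confidence interval -0.19 to 0.09, limma adjusted p = 0.570), and under the GC and length correction it was 0.04. Foxo3 had 8.41, 8.30 and 7.66 RPKM in the Axin1 libraries, against 9.02, 8.67 and 9.19 RPKM in the wild-type libraries. Its groups lay apart by a small gap, with a log2 fold change of -0.13 (95% confidence interval -0.27 to 0.01, limma adjusted p = 0.162). The ratio of Foxo3 to Foxo1 was 0.353, 0.346 and 0.340 in the Axin1 libraries, against 0.380, 0.365 and 0.358 in the wild-type libraries (exact two-sided permutation p = 0.10, the smallest possible, and 0.125 after adjustment over the 5 ratios). Messenger RNA levels say nothing of the phosphorylation that sets the place of these factors in the cell. Of the other FoxO genes, Foxo4 and Foxo6 did not pass, at -0.08 and -0.22 on the log2 scale.

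Of 20 known FoxO target genes tested, 1 was higher and 2 lower by limma, with a median log2 fold change of -0.05 against 0.04 over all tested genes, of which 14.4% were higher and 8.37% lower. Pdk4, a kinase that shuts off pyruvate dehydrogenase, had 1.42, 1.85 and 1.55 RPKM in Axin1 replicates 1 to 3, against 3.13, 2.63 and 2.91 RPKM in wild-type replicates 1 to 3. Its log2 fold change was -0.58 (limma adjusted p = 0.00307), -0.15 at a pseudocount of 10 and -0.89 with voom. The insulin receptor gene Insr had 16.3, 16.6 and 16.1 RPKM in the Axin1 libraries, against 20.6, 21.3 and 22.1 RPKM in the wild-type libraries (log2 fold change -0.37, limma adjusted p = 0.00475). The cyclin-dependent kinase inhibitor gene Cdkn1b was higher by 0.28, a call lost under 12 of 16 alternatives. Of 17 FoxO regulators, 3 were higher and 1 lower, with a median of 0.02, and this share of calls lies near the 22.8% of all tested genes. Sgk1, a kinase that phosphorylates FoxO factors as Akt does, had 40.0, 47.2 and 48.2 RPKM in the Axin1 libraries, against 29.8, 34.6 and 32.7 RPKM in the wild-type libraries (log2 fold change 0.46, limma adjusted p = 0.0101). The nuclear export receptor gene Xpo1 was higher by 0.34 (limma adjusted p = 0.00871). Skp2, whose product marks Foxo1 for degradation, was higher by 0.27, and the acetyltransferase gene Crebbp was lower at -0.28. The Skp2 call was lost under 4 and the Crebbp call under 5 of 16 alternatives, with the GC and length correction among them in both cases.

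Foxp1, a repressor known from neurons, heart and lymphocytes, had a positive log2 fold change, unlike the other 8 genes with all libraries and no further correction. It had 20.7, 22.3 and 23.1 RPKM in Axin1 replicates 1 to 3, against 18.2, 20.03 and 20.1 RPKM in wild-type replicates 1 to 3. Every Axin1 library lay above every wild-type library, yet the gap was small beside the spread within the groups. The mean was 22.1 ± 1.26 RPKM in the Axin1 libraries and 19.4 ± 1.06 RPKM in the wild-type libraries (SD, n = 3 each). The log2 fold change of 0.17 (95% confidence interval 0.02 to 0.33) did not pass the test across all genes (limma adjusted p = 0.102), and under the 16 alternatives it lay between 0.12 and 0.22. Neural progenitor and neuron markers were higher in the same libraries. By limma 8 of the 12 passed as higher and 0 as lower, and they summed to 1174 to 1234 RPKM in the Axin1 libraries and 896 to 1124 RPKM in the wild-type libraries. The part of neural RNA in the Foxp1 values was not tested. Foxp2, a relative of Foxp1, did not pass either, at -0.14, though it did with voom (-0.21) and with the upper quartile (-0.19).

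By mean level the order in the Axin1 libraries was Foxf2, Foxq1, Foxc1, Foxo1, Foxl2, Foxp1, Foxo3, Zfp551 and Foxc2. In the wild-type libraries it was Foxf2, Foxq1, Foxc1, Foxl2, Foxo1, Foxp1, Zfp551, Foxo3 and Foxc2. Neighbours in the first order whose ranges overlapped were Foxo1 with Foxl2, Foxl2 with Foxp1, and Foxo3 with Zfp551. In the wild-type order only the neighbours Foxc1 with Foxl2, and Foxo3 with Foxc2, overlapped. Foxl2 stood above Foxo1 and Zfp551 above Foxo3 in the wild-type libraries with ranges apart, and in the Axin1 libraries the ranges of both pairs overlapped.

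The rest of the forkhead family was read against the same shares of all tested genes, 8.37% lower and 14.4% higher. Of 36 other forkhead genes listed, 16 passed the filter, and 2 of these were lower and 0 higher by limma, with a median log2 fold change of -0.07. Foxf1, the nearest relative of Foxf2 and a factor of the mesenchyme and lung vessels, had 3.16, 4.09 and 4.49 RPKM in Axin1 replicates 1 to 3, against 11.4, 8.42 and 8.70 RPKM in wild-type replicates 1 to 3. The groups lay far apart, with means of 3.91 ± 0.68 RPKM in the Axin1 libraries and 9.50 ± 1.64 RPKM in the wild-type libraries (SD, n = 3 each). Its log2 fold change was -1.09 (SE 0.13, limma adjusted p = 0.00134), and -0.48 with a pseudocount of 10. In the RefSeq order on chromosome 8, Foxf1 is followed by Mthfsd, Foxc2 and Foxl1. Foxl1 stayed under the filter, with 0.280 ± 0.068 RPKM in the Axin1 libraries and 0.415 ± 0.069 RPKM in the wild-type libraries (SD, n = 3 each). Foxk1 had 10.3, 10.9 and 10.7 RPKM in the Axin1 libraries, against 12.54, 14.2 and 13.0 RPKM in the wild-type libraries (log2 fold change -0.29, limma adjusted p = 0.0171). Its call did not survive leaving out Axin1 replicate 2 (adjusted p = 0.0565) or 3 (0.0521), nor the GC and length correction (-0.11). Foxn3 and Foxd1, at -0.37 and -0.33, did not pass with all libraries (limma adjusted p = 0.0612 and 0.114), though each did under some alternatives.

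Zic genes encode zinc finger factors of the dorsal neural tube and its coverings. Zic2 had 42.7, 45.7 and 43.3 RPKM in the Axin1 libraries, against 60.1, 55.0 and 54.9 RPKM in the wild-type libraries (log2 fold change -0.36, limma adjusted p = 0.00780). Zic1 overlapped between the groups, with 37.7, 40.0 and 34.5 RPKM in the Axin1 libraries, against 39.1, 30.8 and 34.0 RPKM in the wild-type libraries. Zic1, Zic4 and Zic5 did not pass, at 0.11, 0.03 and -0.15 on the log2 scale. The value of Zic4 turned negative with either rescaling, with voom, under the GC and length correction, and without Axin1 replicate 2 or wild-type replicate 3. Among other transcription factors of the barrier that depend on Wnt signalling, Ppard and Lef1 were lower (log2 fold changes -1.15 and -0.47, limma adjusted p = 0.000138 and 0.00404) and Sox17 did not pass (-0.08).

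**Figure D3:**
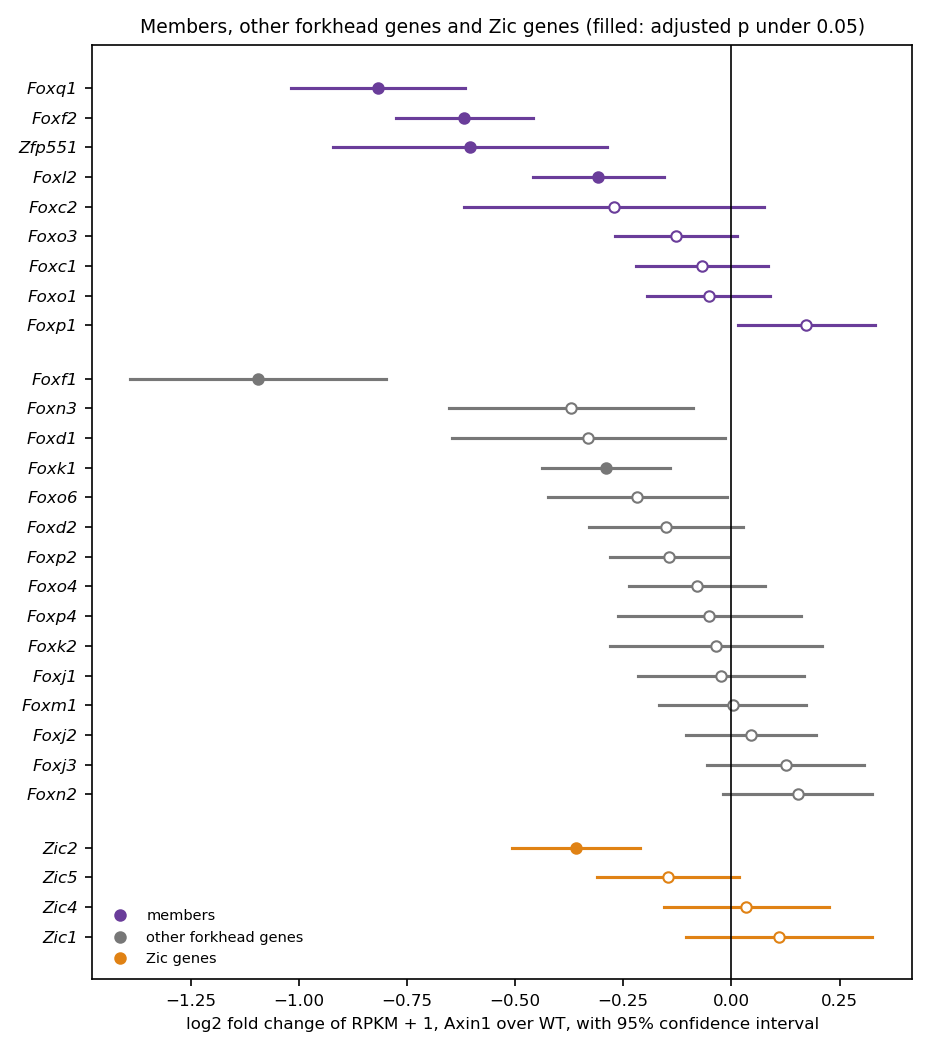
Log2 fold change of RPKM + 1, Axin1 over wild type (horizontal axis), with its 95% confidence interval for the 9 genes (purple), 15 other forkhead genes (grey) and 4 Zic genes (orange). Filled points have a limma adjusted p under 0.05; all filled points lie below 0, from -1.09 for Foxf1 to -0.29 for Foxk1.

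Sets of genes known as downstream of forkhead factors in endothelium were looked up. Of 6 genes with enhancers that carry a joint forkhead and ETS motif, 1 was higher and 0 lower by limma, with a median of -0.10. The one was Mef2c, an endothelial and muscle transcription factor, with 17.6, 19.9 and 20.7 RPKM in the Axin1 libraries, against 14.04, 13.2 and 15.6 RPKM in the wild-type libraries. Its log2 fold change was 0.42 (limma adjusted p = 0.0122), and the call was lost without Axin1 replicate 2 (limma adjusted p = 0.0526). Of 8 FoxC targets, 7 were tested and 2 were lower, with a median of -0.16. Over both sets 3 of 13 genes were called in either direction, a share close to the 22.8% of all tested genes. The sets differed in direction, since both lower calls were FoxC targets and the higher call was in the other set. Of all tested genes, 8.37% were lower and 14.4% higher. Gja4, a connexin gene of arterial endothelium, had 144.8, 149.7 and 174 RPKM in the Axin1 libraries, against 218, 202 and 199 RPKM in the wild-type libraries (log2 fold change -0.40, limma adjusted p = 0.0120). Without Axin1 replicate 2 its call was lost. Cxcl12, a chemokine gene of vessel walls and meninges, was lower at -0.24 (limma adjusted p = 0.0214), a call lost without Axin1 replicate 1, 2 or 3 or wild-type replicate 3. Hey2 and Prox1 did not pass, at 0.18 and 0.15.

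Among 7045 genes that averaged 10 RPKM or more, the genes most like Foxf2 over the 6 libraries were Serinc5, Phlda1, Cxcl12, Net1 and Man1c1, with Pearson r between 0.994 and 0.999. For Foxq1 they were Fam53a, Slc39a11, Xylt2, Fam43a and Nkd1, with r between 0.995 and 0.998. The libraries fall into 2 groups, so that such r values mostly restate the difference between the groups. In all, 213 genes reached an r of 0.95 with Foxf2 and 225 with Foxq1, but 1 gene did with Foxo1. The size of the change was not part of the measure. Serinc5 passed at -0.20 on the log2 scale but not under 7 of 16 alternatives, and Fam53a did not pass at -0.13. Net1, an activator of the GTPase RhoA, had 19.6 ± 1.66 RPKM in the Axin1 libraries and 38.8 ± 3.18 RPKM in the wild-type libraries (SD, n = 3 each; log2 fold change -0.95, limma adjusted p = 0.000320). Nkd1, a feedback inhibitor of the Wnt pathway, had 23.1 ± 2.76 RPKM in the Axin1 libraries and 71.7 ± 6.40 RPKM in the wild-type libraries (SD, n = 3 each; log2 fold change -1.60, limma adjusted p = 6.86e-05). For Foxo1 the nearest gene was Kdm5a, at an r of 0.971, and it did not pass either (log2 fold change -0.08).

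Markers of other cell types were read against the 8.37% of all tested genes that were lower and the 14.4% that were higher. Of 12 pericyte and smooth muscle markers, 10 were tested and 5 were lower, with a sum of 56.2 to 72.6 RPKM in the Axin1 libraries and 73.7 to 87.0 RPKM in the wild-type libraries. Of the Axin1 libraries, replicate 1 held the highest sum of these markers, at 72.6 RPKM, and the lowest Foxf2, at 101 RPKM. Most of the markers followed that sum, but not all. Vtn, the largest part of it, had 27.5, 22.6 and 24.9 RPKM in Axin1 replicates 1 to 3. Cspg4 (9.37, 4.09 and 4.75 RPKM in Axin1 replicates 1 to 3) and Notch3 (14.8, 9.99 and 9.02 RPKM) were highest in replicate 1. So were Pdgfrb, Anpep, Acta2 and Abcc9, and also Des and Myh11, which stayed under the filter. Rgs5 (5.97, 6.01 and 4.27 RPKM), Kcnj8 and Tagln were not. Of 12 meningeal fibroblast markers, 4 were lower and 1 higher. Without wild-type replicate 1, where these markers were highest, the log2 fold changes of Foxf2, Foxq1, Foxl2 and Zfp551 were -0.65, -0.83, -0.33 and -0.59, all with a limma adjusted p under 0.05. Leaving it out does not level the sum of these markers between the groups. Their sums in wild-type replicates 2 and 3 (388 and 433 RPKM) still lay above those of the Axin1 libraries (312 to 331 RPKM). Much of this gap lay in Ptgds, with 164 and 173 RPKM against 56.5 to 82.7 RPKM in the Axin1 libraries. Col1a1, Col1a2, Aldh1a2 and Slc6a13 also lay higher in both than in any Axin1 library. Nr2f2 and Crabp2 lay lower in both, and the remaining markers overlapped. Of 8 erythroid markers, 4 were tested and all 4 were higher, with a sum of 319 to 640.0 RPKM in the Axin1 libraries and 95.3 to 122 RPKM in the wild-type libraries, while Hba-a1 and Hbb-b1 were listed at 0 in every library. Of 6 microglia and macrophage markers 5 were tested and 1 was higher, with a sum of 21.4 to 37.7 RPKM in the Axin1 libraries against 21.0 to 23.2 RPKM in the wild-type libraries. The 5 ependymal and choroid plexus markers were neither higher nor lower by limma, with a sum of 86.3 to 143 RPKM in the Axin1 libraries and 140.2 to 188 RPKM in the wild-type libraries. Of the 10 endothelial markers 1 was higher and 3 lower, with a median log2 fold change of -0.10. The part of these cell types in the values of the 9 genes was not tested.

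**Figure D4:**
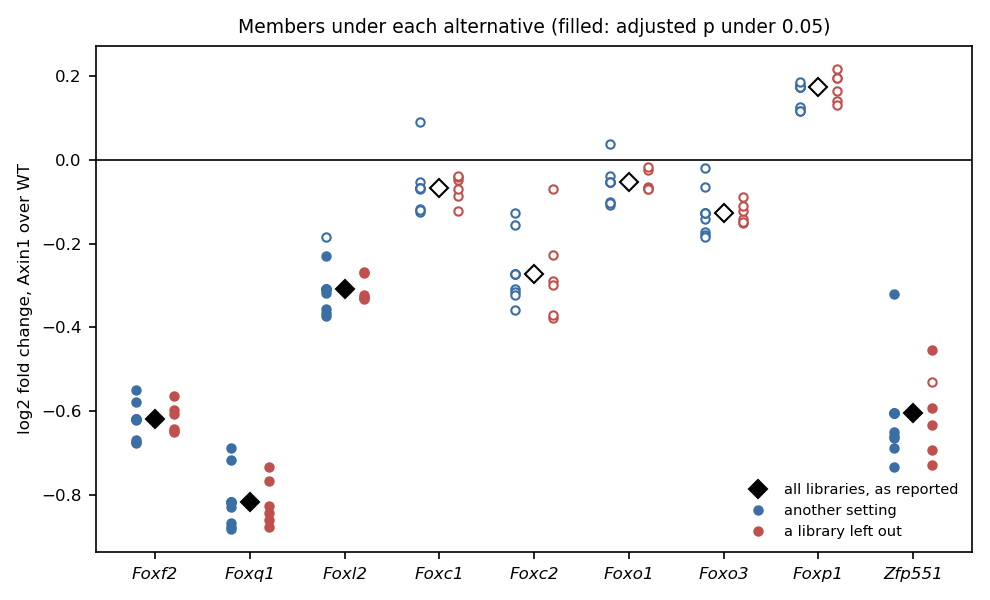
Log2 fold change of each of the 9 genes (Axin1 over wild type, vertical axis) as reported (black diamonds), under 10 other settings (blue) and with each of the 6 libraries left out (red); filled points have a limma adjusted p under 0.05. Foxf2 (-0.68 to -0.55) and Foxq1 (-0.88 to -0.69) kept their call throughout, Foxl2 lost it once and Zfp551 under 2 alternatives.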

How the data were processed

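Brain endothelial RNA of 6 libraries was isolated by TRAP, per the labels' protocols. Bowtie, DESeq and mouse build mm9 stand in the submitters' processing notes, with no versions and no read counter. The authors deposited RPKM per gene and library, with no header naming the unit, which was settled from the transcript length the values imply (median 0.991 of the reference length over 8613 genes). Per the file headers the authors' DESeq output is there too: mean normalized counts (a signal) of each group, their ratio or fold, and p-values. The fold is wild type over Axin1, as 365 genes with reads in Axin1 libraries alone and 796 with reads in wild-type libraries alone showed.

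RPKM and these means together gave back whole reads for 84.6% of values, within 0.05 reads. Replicates differed by more than sampling noise (chi-square per degree of freedom 6.84 to 37.1), so none was a duplicate. With no reads in a 1 kb transcript, 3 reads would be 0.048 to 0.142 RPKM, covering counting error only.

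limma 3.58.1 (R 4.3.3) was fitted to log2(RPKM + 1) of 12493 genes averaging 1 RPKM or more, with group as the only factor. Fold changes are Axin1 over wild type on that scale, so the change of a low gene is understated. Adjusted p is by Benjamini-Hochberg over all tested genes, two-sided, with a threshold of 0.05. Ratios of members were compared by an exact permutation test. The fit was tested on simulated reads. No test on the counts themselves was run as a main result, since the table holds RPKM. Alternatives were a replicate block, pseudocounts of 0.1 and 10, no filter, a minimum of 5 RPKM, rescaling by median of ratios or upper quartile, voom (limma) on the recovered reads scaled by their median of ratios, trend and robust variances, a loess correction for GC content and transcript length (span 0.5), and leaving out each library. Named genes were the 9 members, Axin1, other forkhead and Zic genes, neighbours in RefSeq order, the genes most like Foxf2, Foxq1 and Foxo1, and list genes past the threshold; others were added after their values were seen, and some items are not reported here. The members and lists were chosen with earlier results of these data known. Python 3.11.15, pandas 2.3.3, numpy 2.4.6 and matplotlib 3.10.9 were used.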

Additional observations from a re-analysis of the deposited data

How the results depend on the processing

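Of the 9 genes, 4 were called with all libraries and 3 or 4 under each of the 16 alternatives, and Foxf2 and Foxq1 passed under all of them. With the GC and length correction, the log2 fold change of Foxc1 was 0.0896 and that of Foxo1 0.0369, neither passing. That of Zic4 was -0.00991 with the median of ratios, -0.0176 with the upper quartile, -0.000989 with voom and -0.00466 with the GC and length correction, and with a library left out it ranged over -0.0369 to 0.0834, with -0.0209 without Axin1 replicate 2. That of Foxl2os was -0.00663 with the median of ratios, -0.0131 with the upper quartile and -0.0153 with voom, and with a library left out it ranged over -0.00740 to 0.0763, with -0.00131 without wild-type replicate 1. The causes were not tested.

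Over all genes, 2846 were called, and 1812 with the GC and length correction. Leaving out a library gave 1054 (without Axin1 replicate 2) to 2318 calls, with 1402 without Axin1 replicate 3. The 1800 higher and 1046 lower calls became 1248 and 1392 with the median of ratios, 1117 and 1466 with the upper quartile, and 1227 and 1377 with voom. Of the other forkhead genes 2 were called, 4 with the replicate block or the upper quartile, 1 with the GC and length correction, and 1 to 4 with a library left out (1 without Axin1 replicate 2 or 3, 4 without wild-type replicate 3). Foxn3 passed with the replicate block (adjusted p = 0.0216), with the upper quartile (0.0486) and without wild-type replicate 1 (0.0386). Foxd1 passed with the replicate block (0.0278) and without wild-type replicate 3 (0.0374), as Foxo6 did (0.0280).

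Deviations from the group means correlated weakly between same-numbered libraries (r = 0.0785, 0.127 and 0.0593). Those between differently numbered libraries lay lower (-0.110 to 0.0140). Deviations from a group mean cancel out within the group, so positive r values for some pairs of libraries push the others down. The lower values are therefore not a separate sign of pairing. The numbers were not taken as pairs in the main fit, and a replicate block was an alternative. With the replicate block, 2675 genes and 4 of the 9 members were called. Depth limits low genes most, as in Axin1 replicate 3, the shallowest library, where 294 reads stood behind the lowest of the 9 genes.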
